A study of Homo sapiens with 8 samples.

Results

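The G2/M mitosis genes are 46 genes, found by symbol among 58735 in the deposited count table, that cells switch on as they enter and pass through mitosis. They were measured by RNA sequencing in SW480, a colorectal adenocarcinoma cell line of epithelial origin. The 4 SPOCK1 libraries came from cells that stably overexpress SPOCK1, a secreted proteoglycan, with a FLAG tag, and the 4 vector control libraries from cells with the empty vector. Both kinds of cell had been infected with lentivirus and selected in puromycin, and the labels give all 8 libraries the same batch value. Whether the libraries within a group stem from independent cultures or infections is not given in the labels. The p-values therefore measure the spread between libraries only, and part or all of that spread may be technical. Should all libraries of a group derive from 1 infected and selected population, other differences between the 2 populations and the effect of SPOCK1 cannot be told apart.

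Entry into mitosis is driven by CDK1 bound to cyclin B and switched on by CDC25 phosphatases. Polo-like and Aurora kinases then build the spindle, and the spindle checkpoint holds back the anaphase promoting complex until every kinetochore, the protein plate on each centromere, is attached to microtubules. Most of these genes are transcribed late in the cell cycle under the DREAM complex and the activators B-MYB and FOXM1, so in bulk RNA their level depends on the share of cells in G2 and M. A smaller share of such cells and less RNA per cell cannot be told apart here.

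Of the 46 members, 0 rose and 0 fell with SPOCK1 at an adjusted p under 0.05 (edgeR quasi-likelihood test, adjusted over 15790 tested genes), where 1.04% of all tested genes were called. DESeq2 and limma-voom also called 0 members, where over all tested genes they called 105 and 33 higher and 273 and 116 lower. All 46 members passed the filter on low counts. At an unadjusted p under 0.05 there were 0 higher and 4 lower members, KIF20A, CENPE, KIF20B and CENPF, against 5.49% and 8.17% of all tested genes. The members' log2 fold changes, SPOCK1 over control, had a median of -0.02, with 20 positive and 26 negative. The median over all tested genes was 0.00. For 38 members the 95% interval of the fold change lay within 1.5-fold in both directions, as it did for 65.8% of tested genes. Summed over the 46 members, the level was 6416 ± 128 CPM (read counts scaled to library size with TMM factors) in SPOCK1 libraries and 6563 ± 134 CPM in controls (SD, n = 4 each). The sums ran from 6307 to 6601 CPM with SPOCK1 and from 6376 to 6694 CPM in controls, so the groups overlapped.

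**Figure D1:**
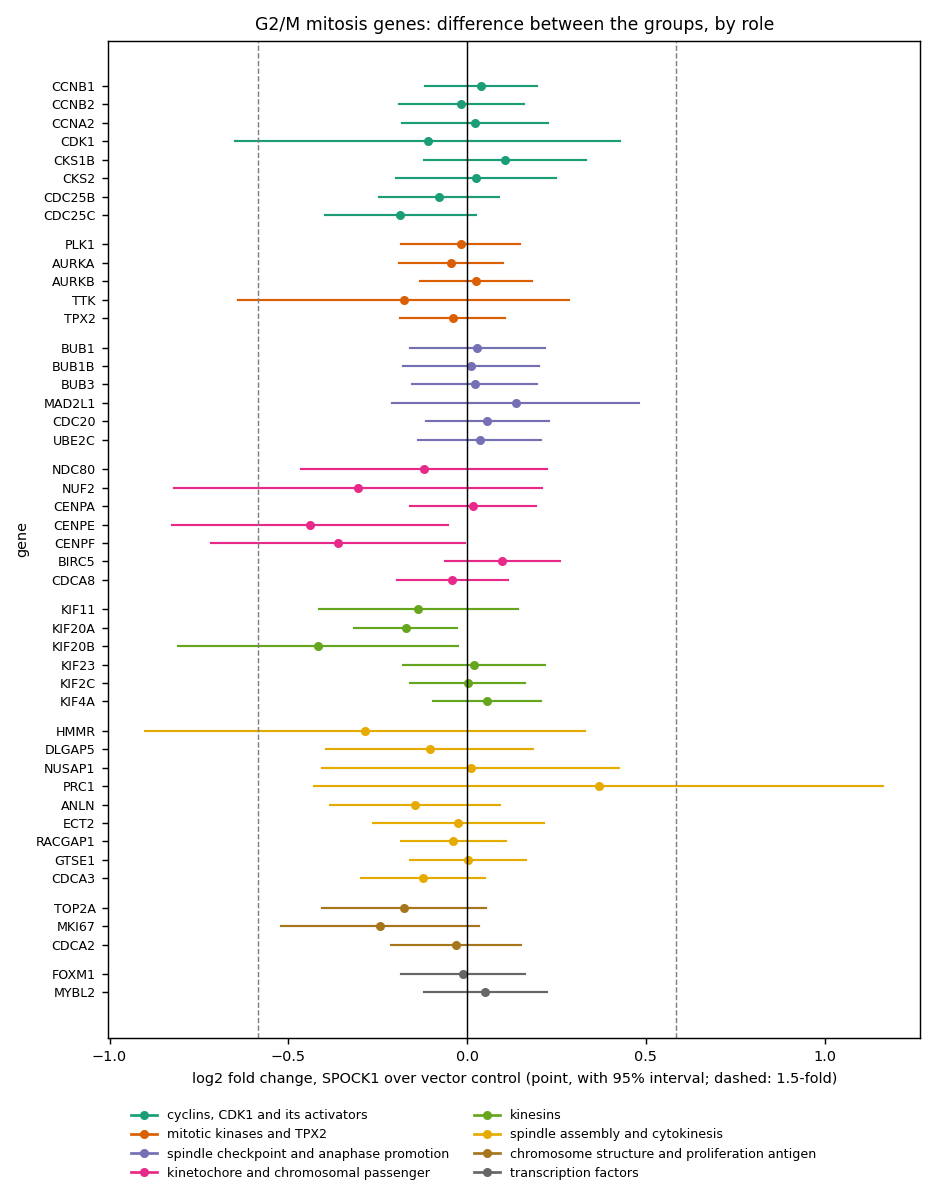
Log2 fold change of each of the 46 genes, SPOCK1 over vector control, as a point with its 95% interval from the edgeR fit, grouped and coloured by role, with dashed lines at 1.5-fold. The intervals of CENPE, CENPF, KIF20A and KIF20B lie below 0, and all others cross it.

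Promoters are shown because 2 sequence motifs are known from the promoters of many G2/M genes. A high share among the members follows from the kind of gene listed, and it is given as a description only. The core TTTGAA of the cell cycle genes homology region, bound by DREAM and by B-MYB with its partners, and CCAAT, the box bound by NF-Y, were searched on both strands in windows of 250 bases before to 50 bases after each start (RefSeq, build GRCh38.p14). Of the 46 members 37 matched by symbol, with 46 promoters among them. TTTGAA was found in 67.4% of these 46 promoters, against 15.2% of all 35116 promoters, and CCAAT in 73.9%, against 34.6%. Both motifs stood in 56.5% of the members' promoters and in 5.9% of all promoters. A match describes letters and does not show binding. The 150 bases before the start are printed for 6 members, KIF20A, CENPF and MKI67 with negative fold changes, HMMR with a wide spread between libraries, and CCNB2 and PLK1 with fold changes near 0, with TTTGAA and CCAAT on either strand in capitals, overlapping matches as 1 run.
KIF20A (chr5:138178962-138179111, plus strand): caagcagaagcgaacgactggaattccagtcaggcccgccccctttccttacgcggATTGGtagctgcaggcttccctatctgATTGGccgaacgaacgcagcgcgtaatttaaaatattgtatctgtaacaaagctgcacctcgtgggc
CENPF (chr1:214603045-214603194, plus strand): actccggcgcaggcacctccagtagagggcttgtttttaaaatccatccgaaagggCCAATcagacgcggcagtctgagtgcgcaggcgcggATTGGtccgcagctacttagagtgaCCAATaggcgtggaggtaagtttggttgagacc
MKI67 (chr10:128126424-128126573, minus strand): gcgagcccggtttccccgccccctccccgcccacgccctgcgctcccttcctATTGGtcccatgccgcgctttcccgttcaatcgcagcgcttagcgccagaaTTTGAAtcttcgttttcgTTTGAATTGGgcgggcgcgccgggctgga
HMMR (chr5:163460482-163460631, plus strand): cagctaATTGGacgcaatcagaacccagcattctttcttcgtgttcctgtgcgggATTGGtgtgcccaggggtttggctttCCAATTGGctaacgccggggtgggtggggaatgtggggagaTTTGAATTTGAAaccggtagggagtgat
CCNB2 (chr15:59104996-59105145, plus strand): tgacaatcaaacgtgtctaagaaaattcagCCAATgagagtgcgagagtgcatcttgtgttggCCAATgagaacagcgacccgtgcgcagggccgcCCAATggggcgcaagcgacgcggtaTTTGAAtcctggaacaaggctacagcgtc
PLK1 (chr16:23678739-23678888, plus strand): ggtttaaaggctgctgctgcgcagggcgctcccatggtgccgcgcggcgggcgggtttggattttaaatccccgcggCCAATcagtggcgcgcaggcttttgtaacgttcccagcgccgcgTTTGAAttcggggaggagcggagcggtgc
KIF20A held CCAAT boxes and 0 copies of TTTGAA in the whole window. CENPF held CCAAT boxes here, and its TTTGAA lay beyond the printed stretch, after the start. CCNB2 and PLK1 held 1 copy of TTTGAA each, and MKI67 and HMMR held 2.

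SPOCK1 itself was at 179.7, 223.1, 224.3 and 255.3 CPM in SPOCK1 libraries 1 to 4 and at no more than 0.157 CPM in any control, as the labels say. Libraries held 35643585 to 42812951 counts. The epithelial markers EPCAM, KRT8, KRT18, KRT19, CDX2 and VIL1 summed to 14500 to 16190 CPM with SPOCK1 and 12910 to 15810 CPM in controls. KRT8 and KRT18 made up most of the sum, with means of 8806 and 4715 CPM with SPOCK1 and 8281 and 4515 CPM in controls. CDX2 and VIL1 had lower means with SPOCK1, at 93.1 and 64.8 CPM, against 104.3 and 78.0 CPM in controls. The means of EPCAM, KRT8, KRT18 and KRT19 were level or higher with SPOCK1. With SPOCK1 5 fibroblast markers summed to 1.05 to 1.78 CPM, 5 leukocyte markers to 0.427 to 0.627 CPM and 4 endothelial markers to 0.855 to 1.23 CPM, against 1.05 to 2.29, 0.244 to 0.620 and 0.485 to 1.27 CPM in controls. DCN, LUM, CDH5 and KDR among them had 0 counts in all 8 libraries. Ribosomal RNA genes took 0.612% ± 0.045 of the counts with SPOCK1 and 0.715% ± 0.017 in controls (SD, n = 4 each), without overlap (exact two-sided permutation p = 0.0286, the smallest that 4 against 4 can give, and 0.114 adjusted over 4 library measures). The part of this difference in the results below was not tested. The contrast between genes of high and low GC content split the libraries within each group: on the log2 scale it was -0.27, 0.03, -0.19 and 0.26 in SPOCK1 libraries 1 to 4 and -0.13, 0.21, -0.17 and 0.26 in control libraries 1 to 4, relative to all 8. The contrast between long and short genes was lowest in SPOCK1 library 1, at -0.19, and highest in control library 1, at 0.26.

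The cyclins, CDK1 and its activators showed 0 of 8 members called and a median log2 fold change of 0.00. CCNB1, which encodes cyclin B1, was at 427.2, 402.0, 361.1 and 380.8 CPM in SPOCK1 libraries 1 to 4, against 374.7, 400.8, 371.7 and 382.0 CPM in control libraries 1 to 4. The groups overlapped, and the SPOCK1 libraries included the highest and the lowest value. Its log2 fold change was 0.04, with a 95% interval of -0.12 to 0.20 (adjusted p = 0.861, edgeR). CCNB2, cyclin B2, and CCNA2, cyclin A2, stood at -0.02 ± 0.08 and 0.02 ± 0.10 (SE) on the log2 scale. CDC25B and CDC25C, the phosphatases that remove the inhibitory phosphates of CDK1, had -0.08 ± 0.08 and -0.19 ± 0.10 (SE, adjusted p = 0.713 and 0.433). CDC25C was at 39.1, 38.6, 32.8 and 36.2 CPM with SPOCK1 and at 39.5, 42.0, 37.0 and 48.3 CPM in controls. All 4 SPOCK1 libraries lay below 3 of the 4 controls, and the groups overlapped through control library 3. CKS1B and CKS2, small subunits that bind CDK1, had 0.11 ± 0.11 and 0.03 ± 0.11 (SE). Their coding sequences are alike, and the rule for counting reads that match several genes is unknown here, so the split between the 2 is uncertain.

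CDK1 (chromosome 10, 60778331 to 60794852, plus strand) was set apart from its cyclins by its spread. It was at 63.6, 31.2, 42.3 and 31.4 CPM with SPOCK1 and at 34.9, 34.4, 79.1 and 33.5 CPM in controls. SPOCK1 library 1 and control library 3 were high, and the other libraries of the 2 groups overlapped. CDK1 had a log2 fold change of -0.11 with an interval of -0.65 to 0.43 (adjusted p = 0.891, edgeR), at 0.30 without control library 3 (adjusted p = 0.499) and at -0.38 without SPOCK1 library 1 (adjusted p = 0.585). These data therefore leave a difference of 1.5-fold downward in CDK1 inside the interval, unlike in CCNB1, CCNB2 and CCNA2.

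Of the mitotic kinases 0 of 5 were called. PLK1, which drives mitotic entry and spindle maturation, was at 211.9, 221.0, 218.8 and 253.9 CPM with SPOCK1 and at 215.2, 244.6, 220.4 and 236.4 CPM in controls. AURKA, the Aurora kinase of spindle poles, had a log2 fold change of -0.04 ± 0.07, its activator TPX2 -0.04 ± 0.07, and AURKB, the Aurora kinase of centromeres, 0.03 ± 0.07 (SE, adjusted p = 0.823, 0.844 and 0.917). Their intervals all lay within 0.19 of 0 on the log2 scale. TTK, the kinase that starts the spindle checkpoint, was at 36.9, 25.6, 27.9 and 22.1 CPM with SPOCK1 and at 25.6, 26.7, 53.2 and 21.8 CPM in controls. As for CDK1, SPOCK1 library 1 and control library 3 were the highest of their groups. The fold change of TTK was -0.18 on the log2 scale with an SE of 0.22 (adjusted p = 0.767), and it was 0.19 with control library 3 left out (adjusted p = 0.606).

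Among the spindle checkpoint and anaphase genes 0 of 6 were called. All 6 had fold changes above 0, with a median of 0.03 on the log2 scale, but each of the 6 was below 0 in at least 1 of the 20 alternatives. For BUB1, BUB1B and BUB3, parts of the checkpoint at unattached kinetochores, the log2 fold change was 0.03, 0.01 and 0.02, each with an SE of 0.08 to 0.09. CDC20, the activator of the anaphase promoting complex that the checkpoint holds back, was at 484.5, 486.4, 439.0 and 504.4 CPM with SPOCK1, against 412.6, 502.2, 433.1 and 492.8 CPM in controls. The ranges overlapped over most of their width, and the log2 fold change was 0.06 ± 0.08 (SE, adjusted p = 0.806, edgeR). UBE2C, the ubiquitin-conjugating enzyme of that complex, had 0.04 ± 0.08 (SE, adjusted p = 0.891). MAD2L1, which encodes the checkpoint protein MAD2, was at 127.9, 83.9, 95.2 and 63.8 CPM with SPOCK1 and at 76.4, 74.1, 109.0 and 77.9 CPM in controls. SPOCK1 libraries 1 and 4 held the highest and the lowest of all 8 values, and its interval of -0.21 to 0.48 was the widest of these 6 genes. Its log2 fold change was 0.14, and -0.06 without SPOCK1 library 1 (adjusted p = 0.761 and 0.927).

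The kinetochore and chromosomal passenger genes had 0 of 7 called and a median of -0.12. CENPF (chromosome 1, 214603195 to 214664588, plus strand), a large protein of the outer kinetochore, was at 47.3, 81.9, 94.4 and 88.2 CPM with SPOCK1, against 124.6, 95.5, 101.4 and 78.8 CPM in controls. SPOCK1 library 1 was lowest and control library 1 highest, and control library 4 lay within the SPOCK1 range. The log2 fold change was -0.36 ± 0.17 (SE, unadjusted p = 0.0470 and adjusted p = 0.357, edgeR), and without SPOCK1 library 1 it was -0.19 (adjusted p = 0.604). The same 2 libraries had the lowest and the highest contrast between long and short genes, and CENPF, at 11690 exonic bases, is the second longest member. The 12 longest members had a median deviation from the group mean of 0.09 in SPOCK1 library 1, on the log2 scale. In control library 1 it was 0.08. What part length has in the values of CENPF was not tested. Where the fit carried GC content and length offsets, its log2 fold change was -0.30 (adjusted p = 0.272). With no filter on low counts beyond 1 count CENPF was called, at -0.36 (adjusted p = 0.0165), where 0.969% of 28782 genes were called lower.

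CENPE (chromosome 4, 103105806 to 103198409, minus strand), the kinesin motor that carries chromosomes to the spindle equator, was at 7.09, 10.7, 12.8 and 10.4 CPM with SPOCK1 and at 13.4, 11.9, 19.3 and 11.0 CPM in controls. The 3 lowest values were from SPOCK1 libraries and the highest was from control library 3. CENPE differed by -0.44 on the log2 scale with an SE of 0.18 (unadjusted p = 0.0284 and adjusted p = 0.309). Without control library 3 it was -0.24 (adjusted p = 0.556), and without both control library 3 and SPOCK1 library 1 it was -0.10 (adjusted p = 0.868). NDC80 and NUF2, partners in the complex that grips microtubules, had -0.12 ± 0.16 and -0.31 ± 0.24 (SE, adjusted p = 0.792 and 0.617). NUF2 was highest in control library 3, and without that library its log2 fold change was 0.06 (adjusted p = 0.916). CENPA, the histone that marks centromeres, had 0.02 ± 0.08. BIRC5, survivin, and CDCA8, borealin, sit with AURKB in the chromosomal passenger complex. On the log2 scale they differed by 0.10 ± 0.08 and -0.04 ± 0.07 (SE, adjusted p = 0.604 and 0.851).

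Of the kinesins, the motor proteins of the spindle, 0 of 6 were called. KIF20A (chromosome 5, 138178719 to 138187715, plus strand), a motor of the central spindle needed for cytokinesis, was at 129.2, 132.0, 129.7 and 134.0 CPM in SPOCK1 libraries 1 to 4, against 152.7, 147.8, 146.4 and 144.6 CPM in control libraries 1 to 4. All 4 SPOCK1 libraries lay below all 4 controls. KIF20A was the 1 member of 46 whose groups did not overlap downward, and 0 were separate upward, against 4.8% and 3.43% of all tested genes. It averaged 131.2 ± 2.19 CPM with SPOCK1 and 147.8 ± 3.48 CPM in controls (SD, n = 4 each). The log2 fold change was -0.17 ± 0.07 (SE, interval -0.32 to -0.03, unadjusted p = 0.0229 and adjusted p = 0.291, edgeR). Over 20 alternative settings it lay between -0.21 and -0.14, and it was called in 1 of them, with GC content and length offsets, at -0.20 (adjusted p = 0.0428), where 1.82% of all tested genes were called lower. The exons of KIF20A share 5.05% of their bases with exons of BRD8 and CDC23 on the other strand.

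KIF20B (chromosome 10, 89701610 to 89774939, plus strand), a related kinesin of cytokinesis, was at 13.0, 13.0, 19.5 and 13.3 CPM with SPOCK1 and at 19.1, 16.2, 28.7 and 14.6 CPM in controls. In SPOCK1 libraries 1, 2 and 4 it lay below every control, and SPOCK1 library 3 lay above 3 controls. The log2 fold change was -0.42 ± 0.19 (SE, unadjusted p = 0.0379 and adjusted p = 0.334, edgeR), and without control library 3 it was -0.18 (adjusted p = 0.652). KIF11, the motor that pushes spindle poles apart, had -0.14 ± 0.13 (SE, adjusted p = 0.694). KIF23, which forms the centralspindlin complex with RACGAP1, had 0.02 ± 0.09. KIF2C, a depolymerase that corrects faulty attachments, and KIF4A, a motor of chromosome arms, had 0.00 ± 0.08 and 0.06 ± 0.07 (SE, adjusted p = 0.995 and 0.780).

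**Figure D2:**
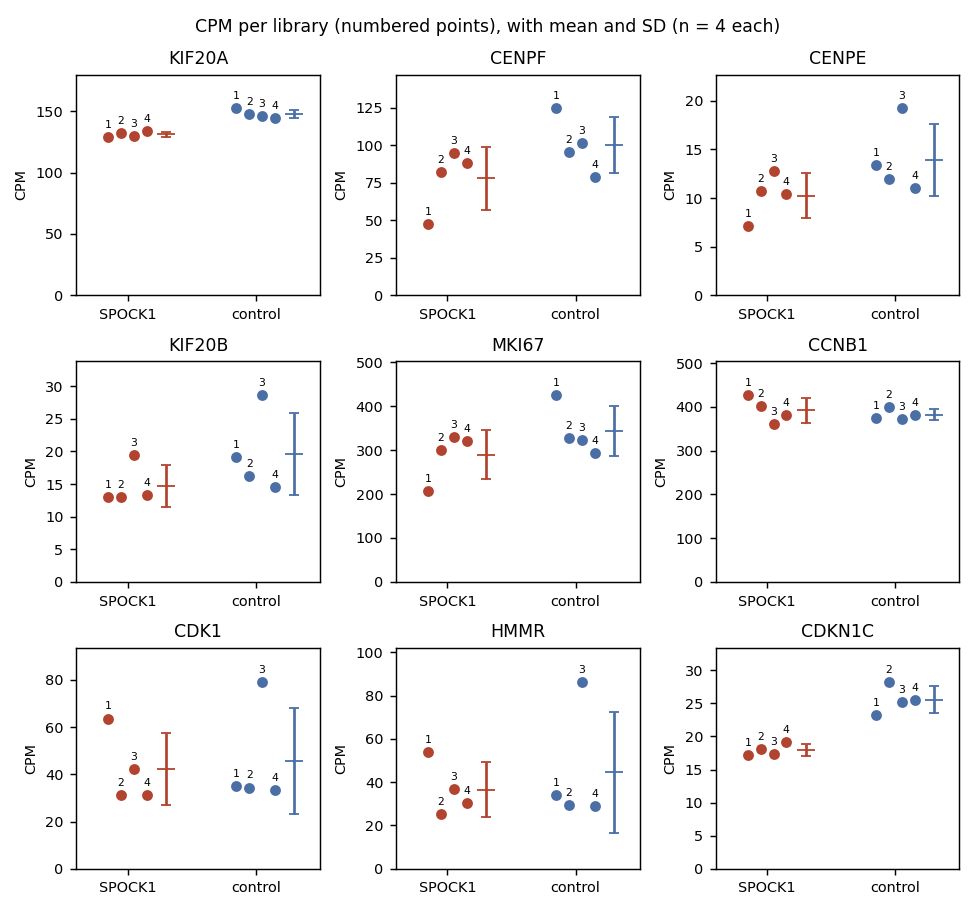
CPM in each library (points numbered by library, SPOCK1 in red at left and vector control in blue at right of each panel), with the mean and SD of 4 libraries, for 8 members and CDKN1C. KIF20A and CDKN1C are the genes shown whose groups do not overlap, and CDK1 and HMMR are highest in control library 3 and SPOCK1 library 1.

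Genes of spindle assembly and cytokinesis had 0 of 9 called, and their median log2 fold change was -0.04. HMMR (chromosome 5, 163460203 to 163491945, plus strand), a hyaluronan-binding protein that also acts in spindle assembly, was at 54.0, 25.3, 36.7 and 30.4 CPM with SPOCK1, against 33.9, 29.3, 86.3 and 29.1 CPM in controls. Control library 3 and SPOCK1 library 1 were again high. HMMR differed by -0.28 on the log2 scale with an SE of 0.29 (adjusted p = 0.715). With control library 3 left out the difference was 0.25 (adjusted p = 0.575). ANLN, the anillin scaffold of the contractile ring, had -0.15 ± 0.11, and ECT2 and RACGAP1, regulators of cytokinesis at the division plane, had -0.02 ± 0.11 and -0.04 ± 0.07 (SE). DLGAP5, which stabilises kinetochore fibres, had -0.10 ± 0.14, GTSE1, a microtubule-binding protein, 0.00 ± 0.08, and CDCA3 -0.12 ± 0.08 (SE, adjusted p = 0.782, 0.993 and 0.531).

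PRC1 and NUSAP1, which bundle microtubules, had the fewest reads of the 46 members. PRC1 (chromosome 15, 90966038 to 90995629, minus strand) had 29, 18, 31 and 14 reads with SPOCK1 and 14, 17, 15 and 26 reads in controls. NUSAP1 (chromosome 15, 41332694 to 41381050, plus strand) had 154, 132, 184 and 111 reads with SPOCK1 and 163, 126, 185 and 106 reads in controls. In the annotation 57.6% of the exonic bases of PRC1 are also exonic in AC068831.7 on the same strand, and 62.2% of those of NUSAP1 in AC087721.2. Among the other members the share on the same strand was at most 10.2%, in BUB1B. AC068831.7 was at 1.51 ± 0.69 CPM with SPOCK1 and 1.95 ± 0.37 CPM in controls (SD, n = 4 each), and AC087721.2 had 0 reads in all 8 libraries. The counts of PRC1 and NUSAP1 are therefore not read as their RNA levels. Their log2 fold changes of 0.37 ± 0.38 and 0.01 ± 0.20 (SE) rest on these counts.

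MKI67, TOP2A and CDCA2 act on mitotic chromosomes, and 0 of the 3 were called. MKI67, the Ki-67 antigen widely used to mark cycling cells, was at 207.6, 300.9, 328.9 and 320.4 CPM with SPOCK1, against 425.3, 327.2, 324.0 and 294.4 CPM in controls. SPOCK1 library 1 was lowest and control library 1 highest, as for CENPF, and the other 6 libraries overlapped. MKI67 differed by -0.24 on the log2 scale with an SE of 0.13 (adjusted p = 0.433, edgeR). With SPOCK1 library 1 left out the difference was -0.12 (adjusted p = 0.748), and with control library 1 left out it was -0.12 (adjusted p = 0.772). Within libraries 2 and 4 of each group it was 0.00, and within libraries 1 and 3 -0.48 (adjusted p = 0.9975 and 0.432, n = 2 each, edgeR). MKI67 is the longest member, at 12807 exonic bases, and the part of length in its values was not tested. TOP2A, the topoisomerase that untangles sister chromatids, had -0.18 ± 0.11, and CDCA2, which brings protein phosphatase 1 to chromatin, -0.03 ± 0.09 (SE, adjusted p = 0.498 and 0.912).

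The transcription factors that drive the late cell cycle genes did not pass the test either. FOXM1 was at 208.5, 241.4, 240.6 and 271.6 CPM with SPOCK1 and at 235.1, 255.4, 240.4 and 238.5 CPM in controls. The SPOCK1 libraries spread to both sides of the controls. Its log2 fold change was -0.01, with an interval of -0.18 to 0.16 (adjusted p = 0.968, edgeR). MYBL2, which encodes B-MYB, had 0.05, with an interval of -0.12 to 0.22 (adjusted p = 0.826). FOXM1 shares 15.9% of its exonic bases with ITFG2 on the other strand.

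Levels between genes were compared as RPKM, which divides by exonic length. That length covers all annotated exons of a gene and not only the transcript in use, and GC content was not corrected for. Rankings between genes carry this limit. In SPOCK1 libraries CDC20 was at 234.8 ± 13.7, CKS2 at 223.8 ± 38.7, UBE2C at 187.0 ± 11.4 and CCNB1 at 153.5 ± 11.1 RPKM, against 225.8 ± 21.6, 219.9 ± 17.5, 182.5 ± 16.7 and 149.5 ± 5.11 RPKM in controls (SD, n = 4 each). These were the 4 highest members in controls, and CDC20 and CKS2 differed there by less than their SD. TPX2, at 110.8 ± 2.90 RPKM with SPOCK1 and 113.9 ± 5.61 RPKM in controls, and MYBL2, at 108.5 ± 6.53 and 104.7 ± 9.97 RPKM, followed. CDCA8, BIRC5, FOXM1, CCNB2 and PLK1 took places 11 to 15, between 47.6 and 53.0 RPKM with SPOCK1 and between 48.1 and 51.5 RPKM in controls, and neighbours among them differed by less than the larger of their SDs. CDK1 was far lower than its cyclins, at 10.7 ± 3.88 RPKM with SPOCK1 and 11.6 ± 5.70 RPKM in controls. In controls CDC20 stood at the 98.9th percentile of all tested genes by RPKM, CDK1 at the 76.4th and CENPE at the 36.8th. Leaving aside PRC1 and NUSAP1, whose counts are not read as RNA levels, the lowest members were KIF20B, NUF2 and CENPE, all under 3 RPKM in both groups.

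**Figure D3:**
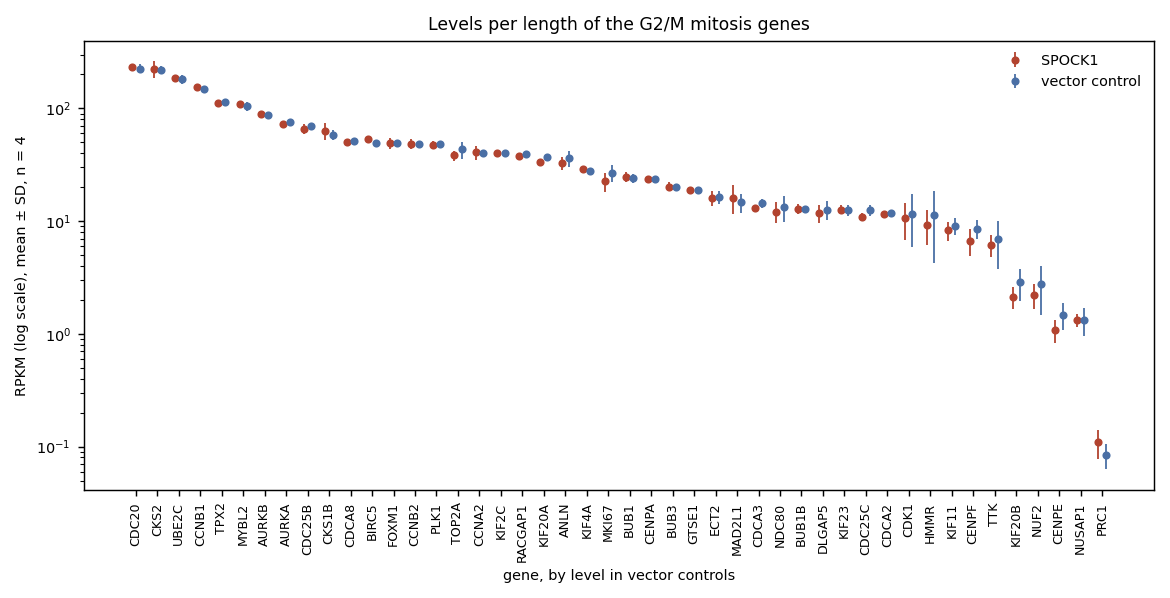
RPKM of each member on a log axis, as mean and SD of 4 SPOCK1 libraries (red) and 4 vector control libraries (blue), ordered by the level in controls. Values in controls run from 225.8 RPKM for CDC20 to 1.47 RPKM for CENPE, apart from NUSAP1 and PRC1, which are plotted but share most of their exonic bases with other genes and are not read as levels.

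Members differed in their spread between libraries. The highest library was at least 1.5 times the lowest of its group for 11 members with SPOCK1 and for 12 in controls, against 33.5% and 31% of all tested genes. Of the 12 members with the lowest GC content in their longest transcript, 34.2% to 40.1%, there were 7 with this spread in the SPOCK1 group and 8 in controls. Of the 12 with the highest GC content, 50% to 60.54%, there were 0 in either group. The share of all tested genes with this spread was not counted by GC content, so these counts are not read as particular to the members. The 12 low-GC members include KIF20B, CENPE, HMMR, CDK1, NUF2 and NDC80. Their median deviation from the group mean, on the log2 scale, was 0.20, -0.12, 0.19 and -0.20 in SPOCK1 libraries 1 to 4 and 0.01, -0.18, 0.44 and -0.28 in control libraries 1 to 4. For the 1888 tested genes of the same GC range, at a mean of at least 1 CPM, it was 0.14, -0.06, 0.12 and -0.18 with SPOCK1 and 0.10, -0.11, 0.16 and -0.15 in controls. In control library 3 the low-GC members thus stood above genes of like GC content. What part GC content, RNA quality or the state of the cells has in this was not tested.

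**Figure D4:**
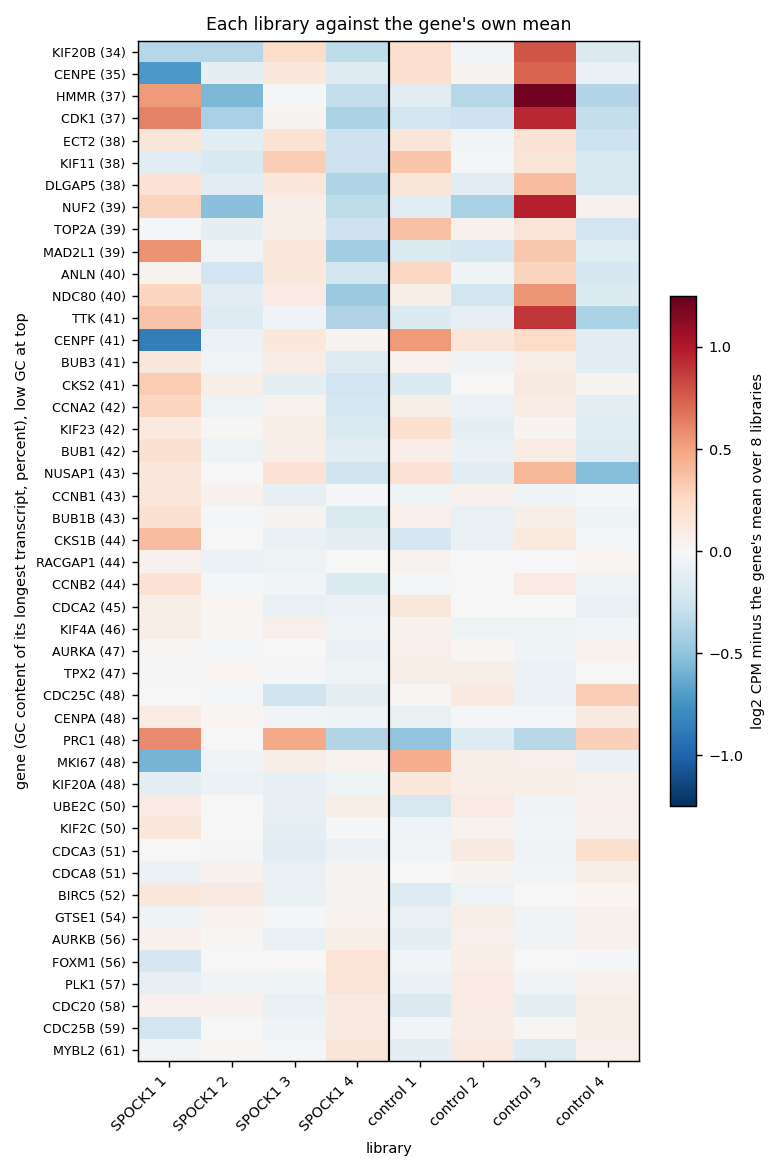
Heat map of the 46 genes (rows, by rising GC content of the longest transcript) in 4 SPOCK1 libraries (left) and 4 vector controls (right), as log2 CPM minus the gene's mean over the 8 libraries. CDK1, HMMR, NUF2 and TTK are high in control library 3, and CENPF and MKI67 are low in SPOCK1 library 1.

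Single libraries stood out across many members. SPOCK1 library 1 held the highest value of its group for 27 of 46 members, and control library 3 for 19 of 46. These 2 libraries also had the lowest contrast between genes of high and low GC content in their groups. Shares over all tested genes were not counted, so these counts are not read as particular to the members. Of the 46 members, 31, 17, 21 and 13 were above their own mean over 8 libraries in SPOCK1 libraries 1 to 4, and 23, 23, 28 and 20 in control libraries 1 to 4. Without SPOCK1 library 1 the median log2 fold change of the members was -0.06, and without control library 3 it was 0.01. In both groups the contrast between genes of high and low GC content was above 0 in libraries 2 and 4 and below 0 in libraries 1 and 3. Within libraries 2 and 4 of each group (n = 2 each) the median was -0.05, with 7 positive and 39 negative. Within libraries 1 and 3 (n = 2 each) it was -0.02, with 21 positive and 25 negative. At this n the counts by sign are a description only. The call stayed at 0 members in each of these fits. Over all genes 46 rose and 94 fell within libraries 2 and 4, and 1 rose and 7 fell within libraries 1 and 3. Without SPOCK1 library 1 the counts over all genes were 34 and 99, and without control library 3 they were 32 and 93.

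Among 135 other genes of mitosis, 1 fell with SPOCK1 and 0 rose, against 0.798% and 0.247% of all tested genes. The gene that fell was CDKN1C (chromosome 11, 2883213 to 2885773, minus strand), which encodes the CDK inhibitor p57 and acts mainly on G1 and S phase kinases. It was at 17.2, 18.1, 17.3 and 19.2 CPM with SPOCK1, against 23.3, 28.2, 25.3 and 25.5 CPM in controls. All 4 SPOCK1 libraries lay below all 4 controls. CDKN1C fell by 29.8% (log2 fold change -0.51 ± 0.10, SE, adjusted p = 0.0138, edgeR). CDKN1C was no longer called without control library 2 (adjusted p = 0.0702), without SPOCK1 library 2 (adjusted p = 0.0579), without SPOCK1 library 3 (adjusted p = 0.0652), and within libraries 1 and 3 of each group (adjusted p = 0.351). Over all genes these fits called 72, 66, 63 and 7 lower, in the same order, against 126 with all 8 libraries. In the 20 alternatives the log2 fold change of CDKN1C lay between -0.55 and -0.44 and its adjusted p between 0.000171 and 0.351.

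The 4 genes that follow by p-value did not pass the test. TFDP1, the DP1 partner of E2F factors, was at 217.8, 211.7, 229.8 and 221.3 CPM with SPOCK1 and at 187.3, 187.8, 183.4 and 190.8 CPM in controls, without overlap (log2 fold change 0.23 ± 0.07, SE, adjusted p = 0.127, edgeR). DESeq2 called it, at 0.24 (adjusted p = 0.0417), where 105 of 15790 genes were called higher. ASPM, a spindle pole protein with a long mRNA, was at 19.2, 32.9, 39.6 and 33.1 CPM with SPOCK1 and at 51.8, 41.8, 49.2 and 34.6 CPM in controls (log2 fold change -0.51 ± 0.17, SE, adjusted p = 0.200). Its lowest value was in SPOCK1 library 1 and its highest in control library 1, as for CENPF and MKI67. What part the length of these genes has in this was not tested. WEE1, the kinase that holds CDK1 inactive, had -0.29 ± 0.10, and ANAPC5, a subunit of the anaphase promoting complex, 0.23 ± 0.08 (SE, adjusted p = 0.234 and 0.235).

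By complex, the other mitosis genes had small medians. For the anaphase promoting complex and its regulators the fold change was positive in 13 of 17, with a median of 0.09 on the log2 scale, and 0 were called. Spindle, kinesin and cytokinesis genes had 26 of 30 negative with a median of -0.09, and condensin, cohesin and separase genes 18 of 21 negative with a median of -0.05, again with 0 called in each. Kinetochore genes outside the members had 21 of 34 positive and a median of 0.05, the DREAM and MuvB complex 7 of 11 positive and 0.02, and the mitosis-linked chromatin genes 7 of 10 positive and 0.06. The genes of CDK1 inhibition, CDK inhibitors and protein phosphatase 2A control had 7 of 12 positive, a median of 0.02, and 1 called lower, CDKN1C. Over all tested genes 7763 were positive and 8027 negative.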

How the data were processed

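RNA from 8 SW480 libraries was analysed from the authors' deposited table, which gives for each gene its read count as a whole number, not normalized, beside the exonic length of each gene, which the authors deposited too. Per the submitters' processing notes, the tools included CASAVA, HISAT2 version 2.0.5 and also featureCounts version 1.5.0-p3. Build, strandedness and handling of multi-mapping reads were not given in the sources used here. Start, end, strand and exonic length of all 58735 genes equalled those of GENCODE release 29 (GRCh38). Since no molecular identifiers were counted, PCR duplicates cannot be told from other reads. The intervals cover the spread between libraries, with any that PCR duplication adds.

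Libraries were grouped by their titles. With edgeR 4.0.16 in R 4.3.3, genes passing filterByExpr (minimum count 10, minimum total 15) were TMM-scaled and tested by quasi-likelihood without covariates. Benjamini-Hochberg adjustment covered 15790 genes, and SE and 95% intervals were taken from the F statistic. The test was checked on simulated counts. DESeq2 1.42.0, limma-voom 3.58.1, other scalings and filters, a replicate block, each library left out, pairs of libraries, and offsets on GC content and length (natural splines, 5 degrees of freedom) were alternatives. Members and lists were chosen with earlier results of these data known. All 46 members could be named, and of 135 other mitosis genes those called and those with the 5 smallest p-values. Some items are not reported here.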

Additional observations from a re-analysis of the deposited data

Results flagged for a closer look

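Within each group of 4 libraries, a library was marked where its gap to the nearest other was too large a part of the group's range (Dixon's test at the 95% level). Of 102 gene and group combinations 5 were marked, and chance marks about 1 in 20. Control library 3 was marked high in 4 of the 5. CDK1 was at 79.1 CPM there, against 33.5 to 34.9 CPM in the other controls. HMMR was at 86.3 CPM, against 29.1 to 33.9 CPM. TTK was at 53.2 CPM, against 21.8 to 26.7 CPM, and MAD2L1 at 109 CPM, against 74.1 to 77.9 CPM. In SPOCK1 library 3 KIF20B was marked, at 19.5 CPM against 13.0 to 13.3 CPM in the other SPOCK1 libraries. These genes share a library, so the marks are not independent.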

How the results depend on the processing

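The count of members called stayed at 0 upward in all 20 alternatives, and at 0 downward in all but 2 of them. With no filter beyond 1 count 1 member was called lower (CENPF) and 3 other mitosis genes, ASPM and CDKN1C among them, with 120 higher and 279 lower over all 28782 genes. With GC content and exonic length offsets 1 member was called lower (KIF20A) and 3 other genes, SPC25 and CDKN1C among them, with 312 higher and 287 lower over all genes, and the member median was -0.06 with 14 of 46 positive, against -0.02 and 20 without offsets. DESeq2 called 1 other mitosis gene higher (TFDP1), with 105 higher and 273 lower over all 15790 genes. Within libraries 1 and 3 of each group 0 other genes were called lower, with 1 higher and 7 lower over all 16178 genes. Leaving out 1 library at a time gave 0 members in either direction and 0 other genes higher and 0 to 1 lower. Over all genes these fits called 24 to 66 higher and 63 to 171 lower. The median member log2 fold change was -0.06 to 0.01. The cause of these differences was not tested. With the replicate number as a block 0 members were called in either direction, CDKN1C stayed called (adjusted p = 0.0280), the median was -0.02, and over all genes 31 rose and 84 fell, against 39 and 126 without it. Deviations of same-numbered libraries correlated at -0.07 to 0.08 and not every library correlated best with its own number, so the numbers were not taken as pairs. With control library 3 and SPOCK1 library 1 both left out, chosen after seeing the data, 0 members were called and the median was -0.03. Over all 15830 genes 37 were called higher and 94 lower in that fit. Low counts limit PRC1. Its interval and those of CDK1, TTK, NUF2, CENPE, CENPF, KIF20B and HMMR reached beyond 1.5-fold.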
